A study of Mus musculus with 2 samples.

Results

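Mir383, Mir137, Mir153, the Mir218 genes and the Mir135 genes are microRNA genes known as enriched in neurons outside the best-known neuronal microRNAs. The group was defined by gene name, with no measured value in the rule, and holds 8 of the 2202 microRNA genes counted: Mir383, Mir137, Mir153, Mir218-1, Mir218-2, Mir135a-1, Mir135a-2 and Mir135b. They were measured by microRNA sequencing in 2 libraries of mouse hippocampus tissue, called replicate 2 and replicate 1 below as the labels number them. Both libraries are labelled as controls from wild-type female mice of the B6NCrl strain, a C57BL/6 substrain, and no other genotype, treatment, time or tissue was analysed here. The free-text labels give the sex, while the fields for sex and age hold no value, and the labels speak of a layer of the hippocampus without naming it. The labels number the libraries as biological replicates 2 and 1, each with technical replicate number 1. The libraries have separate biosample records and 1 shared donor record. Whether they come from separate animals is not stated, so the spread between them may be biological or technical. The adapter trimming documents also differ between the libraries, so library preparation and biosample cannot be told apart. No contrast between conditions exists here: levels, their order, the split of counts within gene families and the gap between the libraries are described.

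A microRNA gene is transcribed as a hairpin that is cut to a duplex, and either arm of the duplex (5p or 3p) can be loaded into an Argonaute protein. The loaded arm pairs with target messenger RNAs mainly through its seed, bases 2 to 8, and lowers their translation or stability. In mice, miR-137 acts on neural stem cell proliferation and dendrite growth, miR-218 is best known from motor neurons, and miR-135 is known from serotonin neurons, where it targets the serotonin transporter Slc6a4 and the receptor Htr1a. MiR-153 is known to target messages of the synaptic vesicle release machinery. The best-described role of miR-383 lies outside the brain, in granulosa cells of the mouse ovary.

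Mature sequences were taken from RefSeq (GRCm38.p6), which holds entries for 7 of the 8 genes, and Mir383 and the 5p arm of Mir135b are named only. The 11 distinct sequences are printed because they show which arms can be assigned to 1 gene and which cannot, and this bears on every count of the Mir218 and Mir135 genes. Capitals mark the seed.
miR-137-5p: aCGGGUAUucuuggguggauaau
miR-137-3p: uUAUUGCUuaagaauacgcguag
miR-153-5p: gUCAUUUUugugacguugcagcu
miR-153-3p: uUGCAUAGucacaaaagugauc
miR-218-5p: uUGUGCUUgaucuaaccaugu
miR-218-1-3p: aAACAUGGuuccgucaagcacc
miR-218-2-3p: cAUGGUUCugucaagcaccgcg
miR-135a-5p: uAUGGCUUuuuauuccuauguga
miR-135a-1-3p: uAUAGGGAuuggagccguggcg
miR-135a-2-3p: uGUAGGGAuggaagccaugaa
miR-135b-3p: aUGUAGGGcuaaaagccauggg

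The 11 sequences carried 11 different seeds, so no seed was shared between the arms printed. Among the 1738 mature entries of the RefSeq table, the seed of miR-218-5p also occurred in miR-7002-3p and that of miR-218-1-3p in miR-496b. The other 9 seeds occurred in no other entry of that table. It lacks Mir383 and the 5p arm of Mir135b, so whether these share a seed with an arm printed, such as miR-135a-5p, was not checked. The Mir218 genes gave the same 5p arm, as did Mir135a-1 and Mir135a-2, whereas their 3p arms differed. Aligned without gaps, miR-218-1-3p and miR-218-2-3p overlapped by 19 bases with 1 mismatch, C12U, counted from base 1 at the 5′ end of miR-218-1-3p, but their annotated ends are 3 bases apart, which gives them different seeds. The 3p arms of Mir135a-1 and Mir135a-2 matched at 15 of 21 overlapping bases, those of Mir135a-2 and Mir135b at 16 of 21, and those of Mir135a-1 and Mir135b at 14 of 21.

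Reads that map to several places form a class of their own in the deposited files and are given to no gene. Against all 2202 annotated hairpins on both strands, Mir218-1 and Mir218-2 shared 22 bases with each other, at positions 25 to 46 of both hairpins. This stretch holds the whole 21-base miR-218-5p. Mir135a-1 and Mir135a-2 shared 24 bases, which hold the whole 23-base miR-135a-5p. A read of exactly either 5p arm therefore has 2 equal matches, and the counts of these 4 genes leave such reads out. The 3p arms of the 4 genes each lay in 1 hairpin, with no stretch longer than 12 bases in any other. The other 4 genes shared at most 14 bases with another hairpin: 13 for Mir383, 11 for Mir137, 10 for Mir153 and 14 for Mir135b, the last with Mir135a-1. These are exact stretches, and how many mismatches the aligner allowed is not given. Copies of these stretches outside annotated microRNA genes were not searched.

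**Figure D1:**
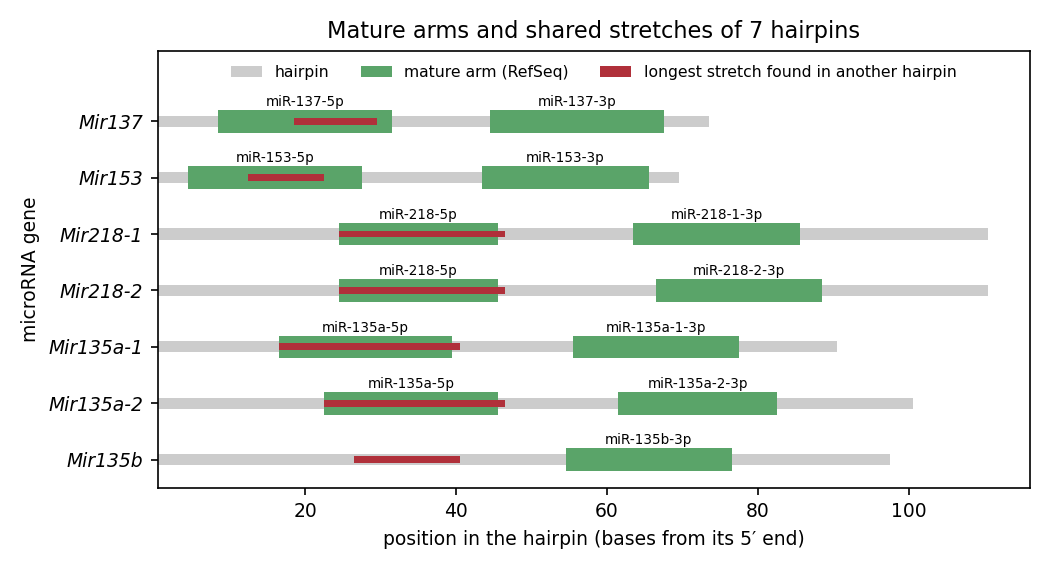
Map of 7 hairpins, with the position in bases from the hairpin's 5′ end on the x axis; grey is the hairpin, green a mature arm from RefSeq, and red the longest stretch that also occurs in another annotated microRNA hairpin. The red stretch covers the whole 5p arm in Mir218-1, Mir218-2, Mir135a-1 and Mir135a-2 and no 3p arm in any of the 7; Mir383 is not drawn and Mir135b is drawn with its 3p arm alone.

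In mm10 coordinates (GENCODE M21, with introns numbered in the overlapping transcript that has most introns), 7 of the 8 hairpins lay in an intron of a gene on their own strand, and Mir137 lay in an exon. Mir383 (ENSMUSG00000065457.3) is at chr8:38252133-38252202 on the minus strand, in intron 1 of 9 of Sgcz, which encodes zeta-sarcoglycan. That intron is 708 kb long. Mir153 (ENSMUSG00000065538.1) is at chr12:117250817-117250885 on the plus strand, in intron 19 of 22 of Ptprn2, which encodes a receptor-type tyrosine phosphatase family protein of dense-core secretory vesicles. The antisense gene Gm5441 covers Mir153 with an intron on the other strand. Mir218-1 (ENSMUSG00000065603.1) is at chr5:48223942-48224051, plus strand, in intron 16 of 38 of Slit2. Mir218-2 (ENSMUSG00000065583.1) is at chr11:35616816-35616925, plus strand, in intron 14 of 35 of Slit3. Slit2 and Slit3 encode secreted axon guidance proteins that bind Robo receptors.

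Mir135a-1 (ENSMUSG00000065407.1) is at chr9:106154124-106154213 on the plus strand, in intron 4 of 6 of the noncoding gene D030055H07Rik and opposite an exon of 2 of the 5 transcripts of Glyctk, the glycerate kinase gene. Mir135a-2 (ENSMUSG00000065524.1) is at chr10:92072086-92072185 on the minus strand, in intron 4 of 4 of Rmst, a long noncoding RNA known from neurogenesis. Mir135b (ENSMUSG00000065435.1) is at chr1:132198088-132198184 on the plus strand, in intron 1 of 4 of Lemd1 and in intron 1 of 1 of a second protein-coding gene on the same strand, AC124108.1. Mir137 (ENSMUSG00000065569.2) is at chr3:118433857-118433929 on the plus strand, in an exon of 3 of the 6 transcripts of the noncoding gene Gm26871. Another annotated microRNA gene, Gm24155, lies 0.792 kb away on the same strand, without a count in replicate 2 and with 3 counts in replicate 1. None of the other 7 genes had a microRNA gene on its strand within 10 kb. No read was counted on the strand opposite any of the 8 genes in either library.

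The libraries held 5901107 sense counts over microRNA genes in replicate 2 and 6713867 in replicate 1, which is 41.3% of the reads of replicate 2 and 42.5% of those of replicate 1. The class of reads with several places made up a further 45.9% in replicate 2 and 43.9% in replicate 1. Levels are given as CPM, the usual scaling of each gene's counts by the library's sense total, so that 1 count is worth 0.169 CPM in replicate 2 and 0.149 CPM in replicate 1. A count was found for 727 genes in replicate 2 and for 733 in replicate 1. As markers of the labelled tissue, the 19 genes of another list of neuron-linked microRNAs summed to 36461 CPM in replicate 2 and 36929 CPM in replicate 1. In bulk tissue, fewer cells of a type and less microRNA per cell cannot be told apart. Intervals given below cover counting error only.

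All 8 genes had counts in both libraries, and the lowest had 50 counts in replicate 2. They summed to 39947 counts or 6769 CPM in replicate 2 and 52516 counts or 7822 CPM in replicate 1, a mean of 7296 ± 744 CPM (SD, n = 2). This is 0.730% of all sense counts. Mir383 held 66.8% of the summed counts in replicate 2 and 71.8% in replicate 1, while Mir137 held 27.9% in replicate 2 and 23.4% in replicate 1. The other 6 genes each stayed below 4% of the sum in both libraries.

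By assigned counts, Mir383 was the highest, with 26688 counts or 4523 CPM in replicate 2 and 37711 counts or 5617 CPM in replicate 1, a mean of 5070 ± 774 CPM (SD, n = 2). Among the 2202 genes it ranked 34 in replicate 2 and 32 in replicate 1. Mir137 had 11145 counts or 1889 CPM in replicate 2 and 12298 counts or 1832 CPM in replicate 1, a mean of 1860 ± 40.2 CPM (SD, n = 2), ranking 54 in replicate 2 and 68 in replicate 1. These were the only members among the 100 highest genes in either library. In counts, Mir383 exceeded Mir137 2.39-fold in replicate 2 (95% interval 2.34 to 2.45) and 3.07-fold in replicate 1 (3.00 to 3.13), so the order was the same in both libraries and its size was not. Per 100 bases of hairpin the folds were 2.50 in replicate 2 and 3.20 in replicate 1.

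Mir153 was expressed at a much lower level than Mir137, with 237 counts or 40.2 CPM in replicate 2 and 278 counts or 41.4 CPM in replicate 1, a mean of 40.8 ± 0.880 CPM (SD, n = 2). Counts of Mir137 exceeded those of Mir153 47.0-fold in replicate 2 and 44.2-fold in replicate 1. Among the 8 genes, Mir153, Mir137 and Mir218-1 had the closest levels in the libraries when scaled by the library totals. Each then had an SD below 3% of its mean. For Mir137 and Mir218-1 this place depended on the scaling, as described in the last section.

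Among the Slit introns, Mir218-2 gave 1270 counts or 215 CPM in replicate 2 and 1126 counts or 168 CPM in replicate 1, a mean of 191 ± 33.6 CPM (SD, n = 2). Mir218-1 gave 317 counts or 53.7 CPM in replicate 2 and 347 counts or 51.7 CPM in replicate 1, a mean of 52.7 ± 1.44 CPM (SD, n = 2). Mir218-2 was therefore the higher of the pair in both libraries, 4.01-fold in replicate 2 (95% interval 3.54 to 4.55) and 3.24-fold in replicate 1 (2.87 to 3.67). It held 80.0% of the pair's counts in replicate 2 (exact binomial interval 78.0% to 82.0%) and 76.4% in replicate 1 (74.2% to 78.6%). Reads of exactly miR-218-5p, the arm both genes encode, are in neither count. The split is thus a split of the remaining reads, and the level of the shared arm was not measured here.

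Within the Mir135 family, Mir135a-2 gave 145 counts or 24.6 CPM in replicate 2 and 343 counts or 51.1 CPM in replicate 1, a mean of 37.8 ± 18.8 CPM (SD, n = 2). Mir135b gave 95 counts or 16.1 CPM in replicate 2 and again 343 counts or 51.1 CPM in replicate 1, a mean of 33.6 ± 24.7 CPM (SD, n = 2). Mir135a-1 was the lowest of the 8 by assigned counts. It had 50 counts or 8.47 CPM in replicate 2 and 70 counts or 10.4 CPM in replicate 1, a mean of 9.45 ± 1.38 CPM (SD, n = 2). Both Mir135a-2 and Mir135b were above Mir135a-1 in each library, with Mir135a-2 above it in counts by 2.90-fold in replicate 2 (95% interval 2.09 to 4.08) and 4.90-fold in replicate 1 (3.78 to 6.43).

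The make-up of the family was not the same in the libraries. Mir135b held 32.8% of the family's 290 counts in replicate 2 (exact binomial interval 27.4% to 38.5%) and 45.4% of its 756 counts in replicate 1 (41.8% to 49.0%), and these intervals do not overlap. Mir135a-1 held 17.2% in replicate 2 (13.1% to 22.1%) and 9.26% in replicate 1 (7.29% to 11.6%), likewise without overlap. Mir135a-2 held 145 of the 290 counts in replicate 2 (44.1% to 55.9%) and 343 of the 756 in replicate 1 (41.8% to 49.0%), and these intervals overlap. As for the Mir218 pair, reads of exactly miR-135a-5p are left out of the counts of Mir135a-1 and Mir135a-2, while Mir135b shares at most 14 bases with another hairpin, so shares of the family compare genes whose reads were not equally assignable.

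**Figure D2:**
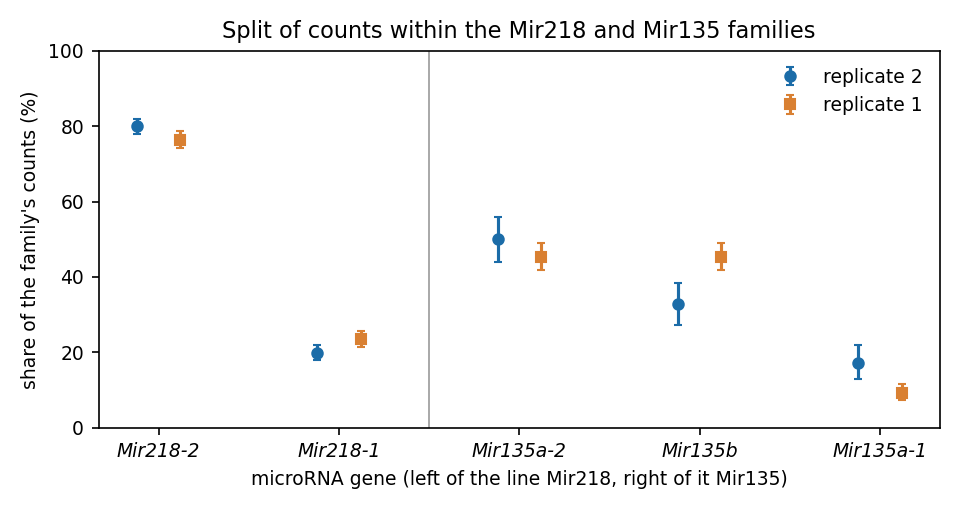
Share of the counts of the Mir218 pair (left of the line) and the Mir135 trio (right of it) given to each gene, in percent on the y axis, with replicate 2 as circles and replicate 1 as squares; bars are exact 95% binomial intervals. Mir218-2 holds 80.0% of its pair in replicate 2 and 76.4% in replicate 1, and the intervals of Mir135b and of Mir135a-1 do not overlap between the libraries.

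By mean CPM of assigned counts the order was Mir383, Mir137, Mir218-2, Mir218-1, Mir153, Mir135a-2, Mir135b and Mir135a-1. The counts of the Mir218 genes and the Mir135a genes leave out reads of exactly the arm that each pair shares. Their places are therefore places by the remaining reads and do not rank their expression against that of the other members. The ranges over the libraries overlapped for the neighbours Mir153 and Mir135a-2 and for Mir135a-2 and Mir135b, and for no other neighbours. Mir135a-2 was below Mir153 in replicate 2 and above it in replicate 1. Hairpins differ in length, between 69 bases for Mir153 and 110 bases for each Mir218 gene, while the mature arms printed have 21 to 23 bases. Per 100 bases of hairpin the order changed at 1 place, though counts of mature arms need not scale with hairpin length. On that scale Mir153 stood at 58.2 CPM per 100 bases in replicate 2 and 60.0 in replicate 1, above Mir218-1 at 48.8 in replicate 2 and 47.0 in replicate 1. Mir383 was still first, at 6461 CPM per 100 bases in replicate 2 and 8024 in replicate 1. Mir137 came next, at 2587 CPM per 100 bases in replicate 2 and 2509 in replicate 1.

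**Figure D3:**
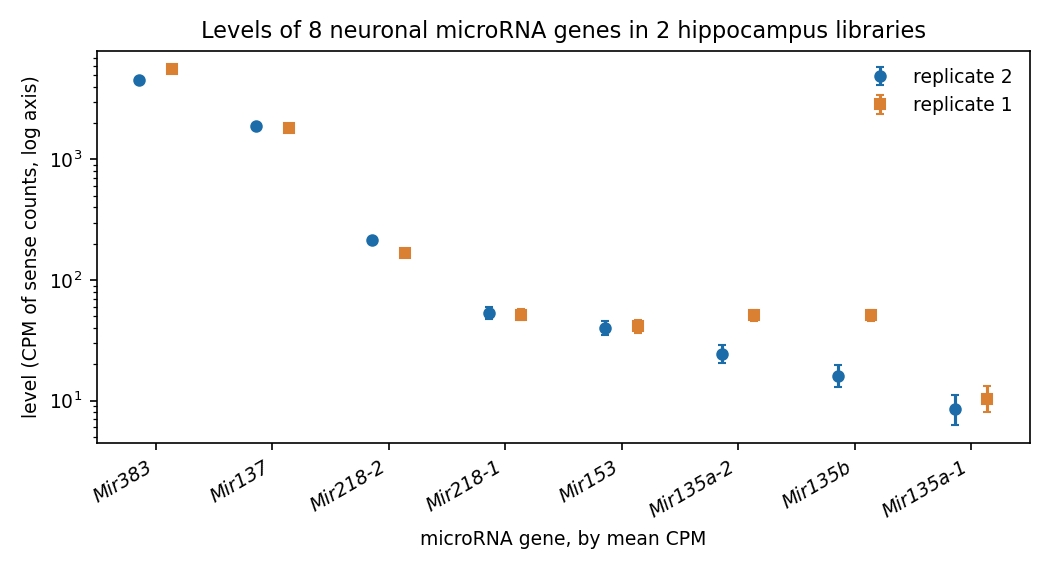
Level of each gene in CPM of sense counts (log axis), ordered by the mean, with replicate 2 as circles and replicate 1 as squares; bars are exact 95% Poisson intervals, which cover counting error only. Mir383 and Mir137 lie above 1000 CPM in both libraries, the other 6 lie at 215 CPM or lower, and Mir135a-2 and Mir135b show the widest gaps between the libraries. Levels of the Mir218 and Mir135a genes leave out reads of exactly the arm that each pair shares.

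The gap between the libraries was set against that of the 466 genes whose mean count over the libraries was at least 10. Each gene was tested with a 2-sided Fisher exact test with Benjamini-Hochberg adjustment over these 466 genes, and called where the adjusted p was below 0.05 and the ratio had 1 sign under 3 ways of scaling the libraries. This test compares the reads of 2 libraries, not animals or conditions. Of the 466 genes, 53.6% were called, 35.6% as lower and 18.0% as higher in replicate 2. Of the 8 genes, 5 were called, 3 as lower and 2 as higher in replicate 2, a share near the background. The median log2 ratio of the 8 genes was -0.17, against -0.18 for all 466 tested genes, when scaled by the totals. With TMM scaling, edgeR's trimmed mean of M values, it was -0.01, against -0.02 for all 466.

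Mir135b was the member farthest apart, at 0.315-fold in replicate 2 over replicate 1 (95% interval 0.248 to 0.397), a log2 ratio of -1.66 (counting SE 0.17, adjusted p = 6.91e-27 by the Fisher exact test). With TMM scaling its log2 ratio was -1.50, a size that 5.15% of the 466 tested genes reached or passed. Mir135a-2 was at 0.481-fold (95% interval 0.393 to 0.586), a log2 ratio of -1.05 (counting SE 0.14, adjusted p = 7.00e-14 by the Fisher exact test). Under TMM scaling it was at -0.89, which 17.4% of tested genes reached. The third Mir135 gene, Mir135a-1, was at 0.813-fold (95% interval 0.554 to 1.19) and did not pass (adjusted p = 0.369 by the Fisher exact test). That interval includes no gap, overlaps the interval of Mir135a-2 and does not overlap that of Mir135b.

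Mir383 was also lower in replicate 2, but by far less, at 0.805-fold (95% interval 0.793 to 0.818). Its log2 ratio was -0.31 by the totals and -0.15 with TMM scaling (adjusted p = 3.98e-163 by the Fisher exact test), and 76.6% of the tested genes were at least as far apart. With the counts of Mir383 the counting error of this log2 ratio was an SE of 0.01, the smallest among the 8 genes.

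Mir218-2 was higher in replicate 2, at 1.28-fold (95% interval 1.18 to 1.39), a log2 ratio of 0.36 by the totals and 0.52 with TMM scaling (adjusted p = 3.35e-09 by the Fisher exact test). Mir137 had a log2 ratio of 0.04 by the totals and 0.21 with TMM scaling. It was called higher at 1.03-fold (95% interval 1.00 to 1.06), with an adjusted p of 0.0346 by the same exact test. That call was lost with no filter on low counts (adjusted p = 0.0566) and on counts without strand (adjusted p = 0.0587), both by the same test. Without strand, the counts of Mir137 itself were unchanged, and only the library totals and the genes tested differed. Mir218-1 was at 1.04-fold (0.890 to 1.21, adjusted p = 0.741) and Mir153 at 0.970-fold (0.812 to 1.16, adjusted p = 0.832), and neither passed the Fisher exact test. The sign for Mir153 depended on scaling, with a log2 ratio of -0.04 by the totals and 0.12 with TMM scaling. In all, 6 of the 8 genes lay within 1.5-fold between the libraries by the totals. With TMM scaling 1 of the 8 lay at least 2-fold apart, as did 13.3% of the tested genes.

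**Figure D4:**
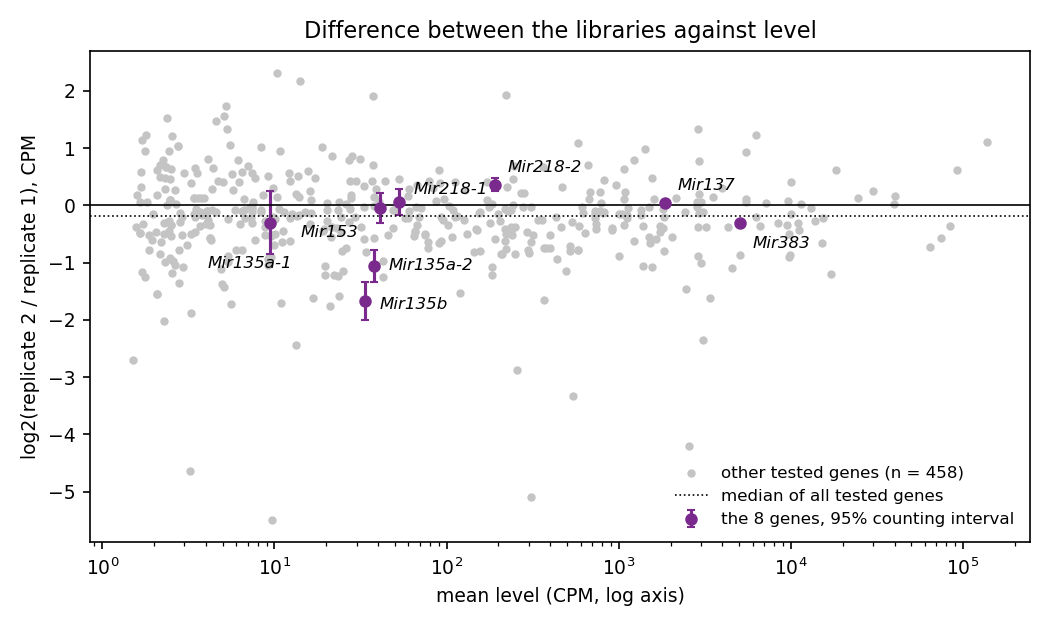
Log2 ratio of replicate 2 over replicate 1 in CPM (y axis) against mean CPM (x axis, log) for the 466 tested genes, with the 8 neuronal genes in purple with 95% counting intervals and the other tested genes in grey; the dotted line is the median of all tested genes, -0.18. Mir135b and Mir135a-2 lie below the cloud's middle at -1.66 and -1.05, while Mir383 at -0.31 lies close to the dotted line.

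Several markers of other cell types moved the same way as Mir135a-2 and Mir135b. The 3 oligodendrocyte microRNAs (Mir219a-1, Mir219a-2 and Mir338) summed to 3193 CPM in replicate 2 and 7078 CPM in replicate 1, with 2 of the 3 called lower. Mir219a-2 alone was at 1671 CPM in replicate 2 and 5126 CPM in replicate 1. Mir126a, the endothelial marker, was at 2897 CPM in replicate 2 and 6191 CPM in replicate 1, a lower call. The 3 erythrocyte genes summed to 32.7 CPM in replicate 2 and 73.1 CPM in replicate 1, with both tested genes called lower.

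In the other marker lists, genes moved in both directions. The 6 microglia and leukocyte genes summed to 2246 CPM in replicate 2 and 2028 CPM in replicate 1, with 4 called lower and 2 higher. Mir150 made up most of this sum, at 1815 CPM in replicate 2 and 1303 CPM in replicate 1, a higher call. Lower calls were Mir146 (380 CPM in replicate 2, 658 CPM in replicate 1), Mir155, Mir142 and Mir223. The last 2 had few counts, Mir142 with 22 in replicate 2 and 47 in replicate 1, and Mir223 with 6 in replicate 2 and 21 in replicate 1. The 7 choroid plexus and ependyma genes summed to 1747 CPM (replicate 2) and 2056 CPM (replicate 1), with 3 called lower, 1 higher and Mir449b and Mir449c at 0 counts in both libraries. Most of that sum is Mir204, at 1653 CPM in replicate 2 and 1532 CPM in replicate 1, a higher call. The 3 called lower were Mir34c (61.2 CPM in replicate 2, 451 CPM in replicate 1, log2 ratio -2.88), Mir34b (log2 ratio -1.15) and Mir449a (13.9 CPM in replicate 2, 32.6 CPM in replicate 1, log2 ratio -1.23). The median log2 ratio of the 5 tested choroid plexus and ependyma genes was -1.15, the lowest of the lists, against -1.10 for Mir126a alone and -0.36 for the oligodendrocyte list. Some genes of each of the 5 other marker lists thus had counts in both libraries. Their part in the gap at Mir135a-2 and Mir135b was not tested.

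The 19 genes of the other neuron list showed no common direction either. Of these, 18 had a count in both libraries and 15 had enough counts to test, of which 7 were called lower and 6 higher in replicate 2, and 2 had a sign that depended on scaling. The median log2 ratio of these 15 was -0.14 by the totals and 0.02 with TMM scaling, close to that of all tested genes. Calls were more frequent in this list than over all 466 tested genes, of which 53.6% were called, 35.6% as lower and 18.0% as higher. Among the 328 genes with a mean of at least 50 counts, 71.0% were called. Mir128-1, a neuron-enriched microRNA gene, was at 8772 CPM in replicate 2 and 3723 CPM in replicate 1, while Mir9-3 was at 58.8 CPM (replicate 2) and 15.5 CPM (replicate 1). Mir132, induced by neuronal activity, was at 12539.5 CPM in replicate 2 and 15073 CPM in replicate 1, while Mir138-1 was at 2024 CPM (replicate 2) and 3716 CPM (replicate 1). The 4 genes not tested were Mir9-2 and the 3 genes of miR-124, known as an abundant neuronal microRNA. Mir124a-1 had 5 counts in replicate 2 and 8 in replicate 1, Mir124a-3 had 1 in replicate 2 and 7 in replicate 1, and Mir124a-2 had none in either. These, like the counts of every gene of the list, are counts of reads that map to 1 place.

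The 3 Mir7 genes of that list (Mir7-1, Mir7-2 and Mir7b), which encode a neuron-enriched microRNA, were called lower in replicate 2, as Mir135a-2 and Mir135b were. Mir7-1 was at 25.2 CPM in replicate 2 and 52.7 CPM in replicate 1, Mir7-2 at 149 CPM (replicate 2) and 268 CPM (replicate 1), and Mir7b at 893 CPM (replicate 2) and 1865 CPM (replicate 1). By the distance in log2(CPM + 1) over the 2 libraries, Mir7-1 was the gene nearest to Mir135a-2 (distance 0.06), followed by the erythrocyte gene Mir451a (0.24). Mir135b had no gene as near: Mir34b (15.6 CPM in replicate 2 and 34.7 CPM in replicate 1) lay at 0.55 and Mir1188 at 0.62. For Mir383 the nearest were Mir598 (5608 CPM in replicate 2 and 5413 CPM in replicate 1), at 0.31, and Mir92b, at 0.35.

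For each of the other members the nearest gene lay at a distance between 0.02 and 0.23. Mir1249 (1852 CPM in replicate 2 and 1819 CPM in replicate 1) lay at 0.03 from Mir137, and Mir409 at 0.09. Mir345 (40.5 CPM in replicate 2, 41.9 CPM in replicate 1) lay at 0.02 from Mir153, and Mir3057 at 0.07. The Mir218 genes had their nearest genes at 0.13 (Mir1193, to Mir218-1) and at 0.23 (Mir429, to Mir218-2), and Mir135a-1 had Mir3106 at 0.03. The 8 genes were not considered as neighbours of each other. With 2 libraries of 1 tissue, such nearness says that levels were alike in these libraries.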

How the data were processed

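Small RNA of mouse hippocampus was sequenced in 2 libraries after a multiplexed microRNA library protocol, per the labels. The authors deposited raw read counts per microRNA gene for mm10 and GENCODE M21, per the notes deposited with each library, in 3 unnamed columns (without strand, sense, antisense) and with 4 read classes. Which aligner and counter made them is not given in the sources used here. The sense counts were used, library sizes excluded the read classes, and CPM was computed over all 2202 gene rows, which all matched GENCODE M21 identifiers. No column of samples was left unmapped.

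Both libraries form 1 group, so levels are given as values with the mean and SD, exact Poisson or binomial intervals at 95%, and no p. Between libraries, counts of each gene with a mean of at least 10 were compared with the Fisher exact test (scipy 1.17.1, 2-sided, 0.5 added to counts for ratios) with Benjamini-Hochberg adjustment, and scaled by totals, TMM (edgeR 4.0.16) and DESeq2 1.42.0 size factors. The test was also run on simulated Poisson counts at the real means and depths. These hold counting error alone, so the simulation says nothing of further spread between libraries. Named genes were the 8 members, the other neuron list and the 2 nearest genes of each member, and marker lists are given beside the results. Members and lists were chosen with earlier results of these data known.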

Additional observations from a re-analysis of the deposited data

How the results depend on the processing

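The summed level of the 8 genes, 7296 CPM, was 3059 when the counts were scaled to all reads, read classes included, and 10155 CPM when summed per 100 bases of hairpin; both change the unit. It stayed within 1 SD under TMM, DESeq2 size factors and counts without strand. Leaving out a replicate returns the sum of the other, 6769 CPM for replicate 2 and 7822 CPM for replicate 1, and so says nothing of stability. The count of 5 members called between the libraries was 4 with no filter on low counts and on counts without strand, because Mir137 no longer passed (adjusted p = 0.0566 and 0.0587), and 5 at a mean of at least 50 counts. TMM or DESeq2 scaling alone also gave 5, but the exact test uses the totals alone, so a change of scaling could not lose a call by its p and says nothing of stability. Over all genes, 250 of 466 were called, against 246 of 787 with no filter, 233 of 328 at a mean of at least 50 counts and 233 of 441 without strand. Counts of each of the 8 genes were the same with and without strand, so that setting changed only the library totals and the genes tested. The log2 ratio of Mir153 was -0.04 by the totals and reversed to 0.12 under TMM and 0.11 under DESeq2 size factors. Which members had the closest levels also depended on scaling. Under TMM, Mir153 was at 40.8 ± 2.35 CPM (SD), Mir137 at 1865 ± 188 CPM and Mir218-1 at 52.8 ± 5.62 CPM. Relative to the mean, the SDs of Mir137 and Mir218-1 were then wider than those of Mir383 (5047 ± 373 CPM) and Mir135a-1 (9.41 ± 0.635 CPM). DESeq2 size factors gave the same change. No paired analysis was possible because the study has 1 group, and with 1 library left out the library comparison has no value. Depth limits the lowest gene, Mir135a-1, whose 50 and 70 counts give a log2 SE of 0.27. With 2 libraries of 1 donor record, and labels that do not say whether the animals differ, a spread between animals cannot be told from a technical one.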
